A study of Mus musculus with 4 samples.

Results

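Matricellular proteins are secreted into the extracellular matrix, where they bind collagens, growth factors and cell surface receptors rather than forming fibres themselves. The genes described here encode 10 of them. Periostin (*Postn*) and tenascin C (*Tnc*) modify the fibrous matrix, thrombospondins 1 and 2 (*Thbs1*, *Thbs2*) bind CD36 and CD47, and osteonectin (*Sparc*) binds collagen. Osteopontin (*Spp1*) is a ligand of CD44 and of integrins. The remaining 4 belong to the CCN family and keep their older symbols in the data, namely *Cyr61* (CCN1), *Ctgf* (CCN2), *Nov* (CCN3) and *Wisp1* (CCN4). Many of these genes are known as markers of developing or injured connective tissue, and *Cyr61* and *Ctgf* are textbook target genes of YAP and TEAD. The list of 10 was drawn up with earlier results of these data in view, and each of the 10 was found once by its symbol among the 28692 genes listed.

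The genes were followed in single-cell RNA sequencing of intestinal stroma from untreated mouse embryos at E12.5. All embryos were of strain EYFP (C57BL/6), in which cells carry yellow fluorescent protein. There were 2 libraries of small intestine (SI) and 2 of large intestine with cecum (LI), each from the pooled guts of several embryos, and cells had been sorted as live, YFP+, Itgb1+, CD45-, Ter119-, CD31- and EpCAM-. The titles give the stage and region used here, whereas other labels of the same samples name adult or colonic tissue, and per the labels a 3′ or a 5′ kit was used without saying for which library. A difference of kit between libraries therefore cannot be told apart from a difference between those libraries.

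The libraries held 31630548 to 62886525 unique molecular identifiers (UMIs, counts of single captured transcripts) in 5151 to 6881 barcodes. LI replicate 1 stood apart in depth, its kept cells having 4219.5 UMIs at the median, against 8384 to 8834 in the other libraries. Of 24485 barcodes, 22094 passed the filters, and pairs of libraries shared 8 to 15 barcode sequences. Clusters of cells were grouped by markers into 10614 cells of other mesenchyme, 5043 smooth muscle-like (SMC-like), 1332 mesothelial-like and 1239 neural-like cells, and 3866 cells stayed unnamed. The defining markers followed the mesothelial and neural names: *Upk3b* was between 539 and 855 CPM (UMIs scaled to a common total per sum) in mesothelial-like cells and at most 2.8 CPM in the other 3 groups, and *Sox10* was between 76.1 and 127 CPM in neural-like cells and at most 0.389 CPM in the other 3. *Myh11*, which encodes the smooth muscle myosin heavy chain, was at 10.6, 186, 144 and 649 CPM in SMC-like cells and 5.15, 14.0, 22.8 and 63.2 CPM in other mesenchyme (LI replicates 1 and 2, SI replicates 1 and 2), so the SMC-like name was weakest in LI replicate 1. The summed level of 11 fibroblast markers did not set other mesenchyme apart. It was 1581 to 2329 CPM there and, in each library, higher in SMC-like and mesothelial-like cells. This group is therefore only a part of the mesenchyme left beside the others. The unnamed clusters 3 (2219 cells, led by *Bmp3* and *Col14a1*) and 5 (1472 cells) also had 9 and 8 fibroblast markers in at least 10% of cells.

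UMIs were summed over the cells of a group in each library and are given as CPM of that sum. Values for single libraries are listed in the order LI replicate 1, LI replicate 2, SI replicate 1, SI replicate 2. The groups are clusters of these same cells, so levels between groups are described without a test, although the members were left out of the genes used for clustering. Shares of cells are percentages with at least 1 UMI among cells thinned to a common 3000 UMIs. Shallower cells were left out of these shares, 982 of 6106 in LI replicate 1 against 201 of 4603, 80 of 5138 and 113 of 6247 in the other libraries. Means are given ± SD over the 4 libraries (n = 4). CPM are not divided by transcript length, so levels were compared between cells and not between genes.

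**Figure D1:**
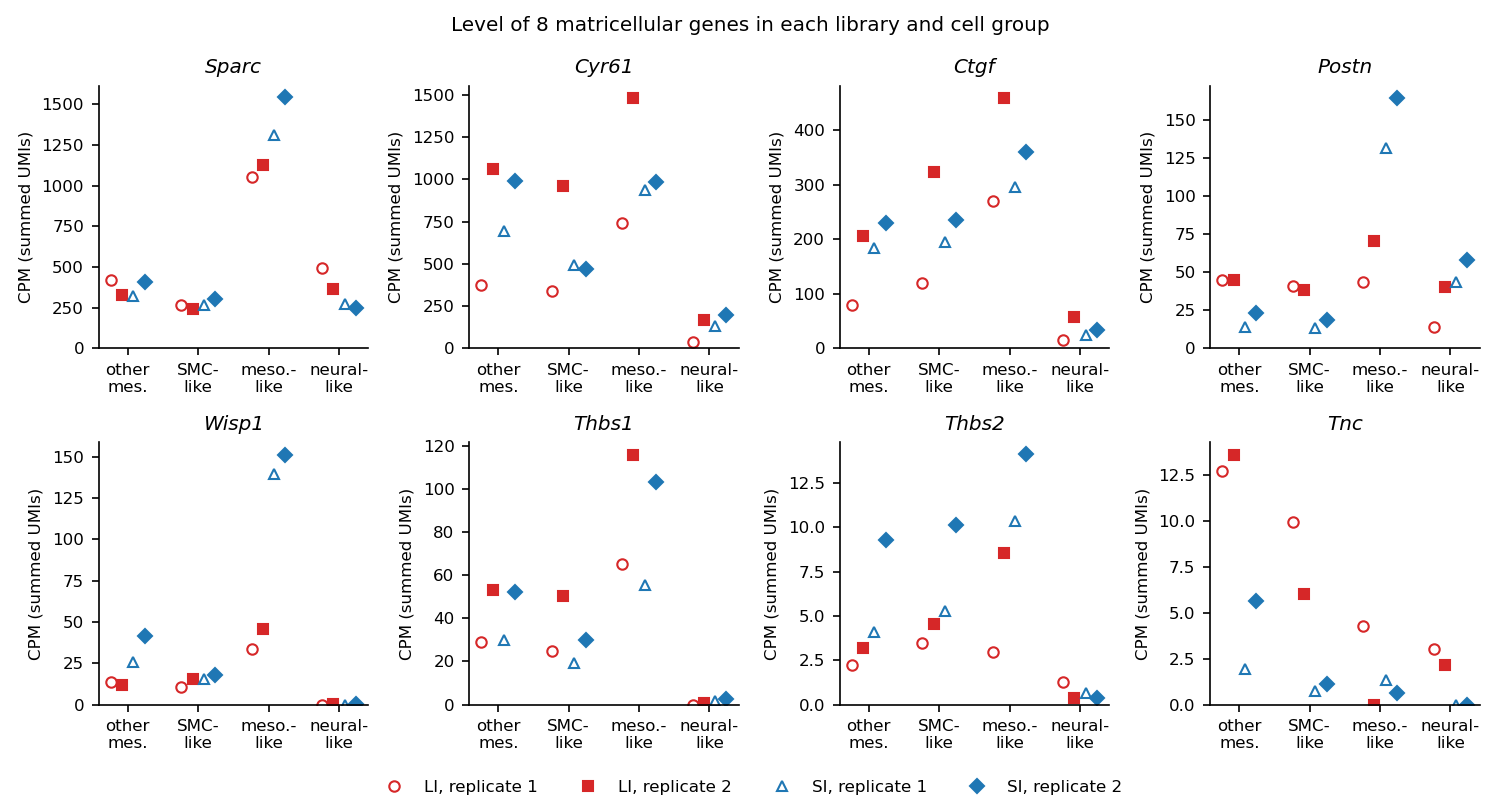
Level of 8 members (panels) in 4 groups of cells (x axis), as CPM of the UMIs summed per library (y axis, linear and starting at 0, with its own scale in each panel). Each point is 1 library, red for LI and blue for SI, open for replicate 1 and filled for replicate 2. *Sparc* was highest in mesothelial-like cells in every library, and *Tnc* was the member with its highest mean in other mesenchyme.

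*Sparc* encodes osteonectin, a collagen-binding protein, and lies on chromosome 11 at 55394500 to 55423183 on the minus strand (GRCm38, the build named mm10 in the files). In mesothelial-like cells it stood at 1054, 1127, 1310.4 and 1547 CPM, a mean of 1259 ± 220. Other mesenchyme had 419, 327, 322 and 408 CPM, so that the mesothelial-like value was 2.51 to 4.07 times higher within the same library. SMC-like cells had the lowest level of the 3 non-neural groups, at 269, 241, 266 and 303 CPM. *Sparc* UMIs were found in 96.0% ± 3.3 of thinned mesothelial-like cells, against 60.4% ± 3.7 in other mesenchyme and 52.7% ± 4.0 in SMC-like cells.

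Neural-like cells were made of a pair of clusters that differed in *Sparc* and *Postn*. Cluster 7 was led by *Foxd3*, *Sox10* and *Erbb3*, genes of enteric neural progenitors and glia, and cluster 9 by *Cartpt*, *Stmn2* and *Tubb3*, genes of neurons. *Sparc* stood at 421 ± 117 CPM in cluster 7 and at 30.5 ± 12.3 CPM in cluster 9, and *Postn* at 49.1 ± 24.7 and 0.927 ± 0.815 CPM. Their depths were alike, with medians of 13615.5 and 12146 UMIs per cell. The neuronal cluster 9, whose cells are not known as a source of matrix genes, is used below as the level that free RNA in the droplets could give: 13.9 ± 7.9 CPM of *Cyr61*, 3.92 ± 1.58 of *Ctgf*, 0.63 ± 0.76 of *Thbs1* and 0.43 ± 0.50 of *Wisp1*. Of thinned cluster 9 cells, 5.96% ± 2.1 had a *Sparc* UMI, 3.68% ± 4.0 a *Cyr61* UMI and 0.446% ± 0.89 a *Postn* UMI. The other mesenchyme, SMC-like and mesothelial-like means of these 6 genes were all above those of cluster 9. Cells of other mesenchyme were shallower, with medians of 4031.5, 8311, 9325 and 8455.5 UMIs by library. Free RNA could therefore give them a higher CPM than it gives cluster 9.

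*Cyr61* and *Ctgf* encode cysteine-rich CCN proteins that bind integrins and heparan sulfate. *Cyr61* lies on chromosome 3 at 145646976 to 145649981 (minus strand) and *Ctgf* on chromosome 10 at 24595442 to 24598683 (plus strand). *Cyr61* stood at 373, 1059, 692 and 993 CPM in other mesenchyme and at 743, 1480.5, 935 and 986 CPM in mesothelial-like cells. Its SMC-like levels were 338, 962, 493 and 469 CPM, below other mesenchyme in each of the 4 libraries. In neural-like cells it was at 38.7, 168, 133 and 199.6 CPM, below every other group in every library.

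*Ctgf* was at 78.4, 205, 184 and 229 CPM in other mesenchyme and at 269, 459, 296 and 360.4 CPM in mesothelial-like cells. SMC-like cells had 120.2, 323, 195 and 236 CPM and neural-like cells 14.6, 57.1, 24.9 and 34.2 CPM. The order of the groups was thus the same in each library, with mesothelial-like cells first, SMC-like cells second and neural-like cells last. LI replicate 1 was the lowest library for *Cyr61* and *Ctgf* in all 4 groups, and the LI replicates differed 2.61-fold for *Ctgf* and 2.84-fold for *Cyr61* in other mesenchyme. The SI replicates differed 1.24-fold and 1.44-fold in the same cells.

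*Wisp1* (chromosome 15, 66891320 to 66923201, plus strand) encodes CCN4, known as a target of WNT signalling. In mesothelial-like cells it was at 33.7, 45.5, 139.9 and 151 CPM, and in other mesenchyme at 13.3, 11.5, 25.5 and 41.6 CPM. SMC-like levels lay between 10.9 and 17.8 CPM. Neural-like cells held only 3 *Wisp1* UMIs among 17873450, with 0 in LI replicate 1 and SI replicate 1, where a count of 0 allows up to 1.29 and 0.656 CPM. *Nov* (chromosome 15, 54745702 to 54754039, plus strand) encodes CCN3. It was close to the limit of detection, with 63 UMIs in all kept cells, of which 21 were in cluster 4 and 14 in the mesothelial-like cluster 6. Of these 14, 10 came from LI replicate 2.

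The start of *Cyr61* is shown because it holds a match to the core letters that TEAD factors are known to bind, and *Cyr61* and *Ctgf* are the members that moved together in the tests below. *Postn* and *Tnc* are shown because *Postn* differed between LI and SI in opposite directions across groups and *Tnc* in 1 direction. Sequences are RefSeq windows of 300 bases (GRCm38.p6), from 250 bases before to 50 after an annotated start, 5′ to 3′ on the gene's strand. Capitals mark matches on either strand. The letters searched were TATAAA for the TATA box. For the TEAD core they were GGAATG. Those of the AP-1 site were TGACTCA. The table held windows for 6 of the 10 members, and of *Postn* and *Tnc*, with 2 starts each, the start further downstream is printed.
Cyr61, chr3:145649936-145650235, minus strand: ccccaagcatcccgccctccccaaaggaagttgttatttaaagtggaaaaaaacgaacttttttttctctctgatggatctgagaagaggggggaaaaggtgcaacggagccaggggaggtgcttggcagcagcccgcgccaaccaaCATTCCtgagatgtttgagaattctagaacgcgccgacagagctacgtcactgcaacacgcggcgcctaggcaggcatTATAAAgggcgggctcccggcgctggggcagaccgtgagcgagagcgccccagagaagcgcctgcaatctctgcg
Postn, chr3:54360857-54361156, plus strand: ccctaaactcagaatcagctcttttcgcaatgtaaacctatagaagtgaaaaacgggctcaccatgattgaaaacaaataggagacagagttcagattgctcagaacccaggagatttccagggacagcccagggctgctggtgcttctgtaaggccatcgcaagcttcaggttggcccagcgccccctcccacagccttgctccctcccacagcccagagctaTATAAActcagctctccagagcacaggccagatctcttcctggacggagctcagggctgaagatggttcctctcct
Tnc, chr4:64046887-64047186, minus strand: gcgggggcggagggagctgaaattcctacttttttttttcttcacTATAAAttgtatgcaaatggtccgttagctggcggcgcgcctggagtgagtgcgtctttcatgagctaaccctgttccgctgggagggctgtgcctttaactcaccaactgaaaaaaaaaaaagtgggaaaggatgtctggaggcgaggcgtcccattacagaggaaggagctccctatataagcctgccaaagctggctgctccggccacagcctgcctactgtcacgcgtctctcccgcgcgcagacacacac
The *Cyr61* window carried CATTCC, the TEAD core on the other strand, 103 bases before the start, and TATAAA 25 bases before it. The *Postn* window carried TATAAA 26 bases before the start and the *Tnc* window 205 bases before it. Only exact letters were searched, so tatataag, which lies between that *Tnc* match and the start, is not marked. Of all 32851 windows, 13.6% held TATAAA, 14.7% the TEAD core and 5.20% the AP-1 letters on either strand. No member window held the AP-1 letters, which says only that they are not in these 300 bases.

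*Thbs1* lies on chromosome 2 at 118111876 to 118127133 (plus strand) and encodes thrombospondin 1, an activator of latent TGF-β. It stood at 65.2, 116, 55.3 and 103 CPM in mesothelial-like cells, 1.86 to 2.26 times the level of other mesenchyme in the same library (28.8, 53.1, 29.8 and 52.0 CPM). SMC-like cells had 24.7, 50.3, 19.2 and 29.9 CPM. Neural-like cells had 0, 0.90, 1.53 and 2.78 CPM, near the cluster 9 level. Replicate 2 was above replicate 1 by 1.55- to 2.03-fold in each of the 3 non-neural groups of either region. Exons of *Thbs1* overlap those of *Gm29233* on the opposite strand.

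*Thbs2* (chromosome 17, 14665500 to 14694235, minus strand) encodes the related thrombospondin 2. It was found at low levels, 2.25, 3.16, 4.11 and 9.28 CPM in other mesenchyme, 3.47, 4.56, 5.30 and 10.1 CPM in SMC-like cells and 2.95, 8.56, 10.3 and 14.1 CPM in mesothelial-like cells. Both SI libraries were above both LI libraries in each of these groups. In neural-like cells there were only 10 UMIs of *Thbs2* in all 4 libraries.

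*Tnc* (chromosome 4, 63959785 to 64047015, minus strand) encodes tenascin C, a large hexameric protein of embryonic and healing matrix. Its levels in other mesenchyme were 12.8, 13.6, 1.94 and 5.64 CPM, and in SMC-like cells 9.94, 6.05, 0.72 and 1.11 CPM. In mesothelial-like cells it was at 4.26, 0, 1.35 and 0.64 CPM, from 17 UMIs in all. Neural-like cells held 7 and 12 UMIs in the LI libraries and 0 in both SI libraries. Other mesenchyme was above SMC-like cells in each of the 4 libraries, and it held 73.5% ± 6.2 of all *Tnc* UMIs while holding 46.2% ± 5.7 of the UMIs of all genes.

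*Postn* (chromosome 3, 54361109 to 54391037, plus strand) encodes periostin, which binds collagen and cell surface integrins. In LI its levels were 43.6 and 70.5 CPM in mesothelial-like cells and 44.7 and 45.1 CPM in other mesenchyme, a ratio of 0.97 in replicate 1 and 1.56 in replicate 2. In SI mesothelial-like cells had 132 and 165 CPM and other mesenchyme 13.8 and 23.4 CPM, so that the mesothelial-like level was 9.55 and 7.03 times higher. SMC-like cells followed other mesenchyme with 40.7, 38.5, 13.4 and 18.8 CPM. Neural-like cells had 13.7, 40.2, 43.3 and 57.8 CPM, nearly all of it in cluster 7, where 762 of the 766 neural-like *Postn* UMIs were found.

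*Spp1* (chromosome 5, 104435118 to 104441050, plus strand) encodes osteopontin. Only 97 UMIs were counted in all kept cells, 26, 28, 24 and 19 by library. Of these, 52 lay in neural-like cells, 20, 13, 11 and 8 by library, and 47 of the 52 in the progenitor cluster 7. This gave 8.59, 2.33, 2.41 and 1.48 CPM in neural-like cells against 0.18 to 0.36 CPM in other mesenchyme. SMC-like cells had 0 UMIs in both LI libraries, which allows up to 0.694 and 0.370 CPM.

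**Figure D2:**
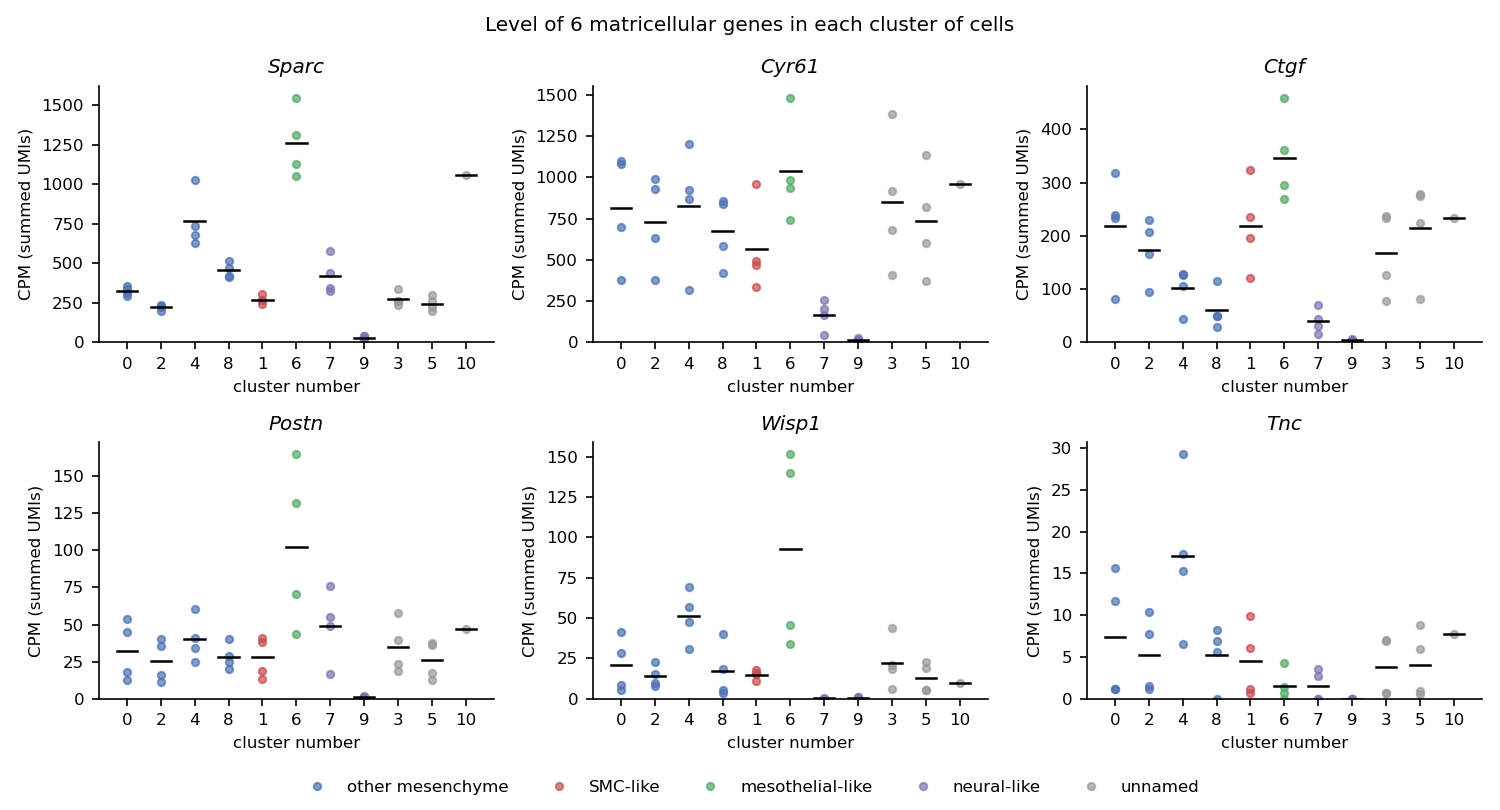
Level of 6 members (panels) in 11 clusters of cells (x axis, by cluster number, coloured by group) as CPM of summed UMIs (y axis, linear from 0). Each point is 1 library with at least 20 cells of that cluster, and the black line is the mean of the points. Cluster 6 had the highest mean of *Sparc*, *Postn* and *Wisp1*, cluster 4 the highest *Tnc*, and cluster 9 was near 0 in all 6 panels.

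The 4 clusters of other mesenchyme did not carry the members alike. Cluster 4, led by *Anxa2*, *Tac2*, *Wnt4* and *Slit2*, had the highest *Sparc* among them at 768 ± 179 CPM, against 325 ± 28.0 in cluster 0 and 221 ± 14.9 in cluster 2. It also had the highest means of *Tnc* (17.1 ± 9.4 CPM), *Thbs1* (66.5 ± 18.6 CPM) and *Wisp1* (51.0 ± 16.1 CPM) of the 4. *Ctgf* went the other way, at 101 ± 40.2 CPM in cluster 4 and 60.8 ± 37.6 CPM in cluster 8 (led by *Foxd1* and *Shisa3*) against 218 CPM in cluster 0. *Tnc* in cluster 4 was at 29.2, 15.3, 6.51 and 17.3 CPM, so that the LI and SI libraries overlapped in this cluster. *Cyr61* means ranged only from 674 to 829 CPM over these clusters, less than its spread between libraries.

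The first question put to the libraries was which members differed between SI and LI within a group of cells. Sums per library were compared with edgeR's quasi-likelihood test over all genes, with 2 libraries per region, and a gene was called at an adjusted p (Benjamini-Hochberg over all genes) under 0.05. The labels speak of 2 independent experiments on several embryos each but do not say which library came from which, so a p measures the spread between these libraries of pooled embryos. *Postn* and *Wisp1* were left out of the tests, since their difference between regions was known when the list was drawn up. Of the remaining 8 members, 1 was called in SMC-like cells and 0 in other mesenchyme, mesothelial-like and neural-like cells. Over all genes tested 1.6%, 2.97%, 1.01% and 0.328% were called in these 4 groups, of which those higher in LI made 1.13%, 2.02%, 0.525% and 0.204% and those higher in SI 0.472%, 0.954%, 0.488% and 0.124%, and 5 or 6 of the 8 members passed the filter on low counts in each group, so the single call is not read as a result about the list. In each group 2 of the members had an unadjusted p under 0.05 (in neural-like cells *Sparc* and *Tnc*, the latter through a filter that it passed by its LI counts alone), as did 12.0%, 16.1%, 10.8% and 8.32% of all genes in the same order. Where a library is left out below, its region is a single library that is assumed to vary like the other region, so such a p has no spread of that region behind it and shows only how far the result rests on 1 library.

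*Tnc* was the member called. In SMC-like cells it was higher in LI, with a log2 fold change of SI over LI of -2.91 ± 0.43 (SE, adjusted p = 0.0149), and the LI and SI libraries did not overlap. The call held under each of the 13 alternatives, with adjusted p up to 0.0453. In other mesenchyme the change was -1.65 ± 0.41 and missed the threshold (adjusted p = 0.0844). It was called there under 8 of 15 alternatives, among them without LI replicate 1 (adjusted p = 0.00386), without LI replicate 2 (0.00559) and without SI replicate 2 (0.000402), whereas without SI replicate 1 it was -1.10 (adjusted p = 0.115). In neural-like cells *Tnc* passed the filter on low counts through LI alone. The LI level was at least 8.0-fold higher, from 19 UMIs in LI and with 3 UMIs over both SI libraries together as the limit of the 0 there (adjusted p = 0.0821).

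*Thbs2* went the other way, with higher levels in SI that did not pass the test. Its log2 fold changes were 1.44 ± 0.40 in other mesenchyme (adjusted p = 0.120), 1.07 ± 0.39 in SMC-like cells (0.312) and 1.17 ± 0.48 in mesothelial-like cells (0.381). In other mesenchyme the value was called without LI replicate 2 (adjusted p = 0.0139) or without SI replicate 1 (0.00496), and was 0.77 without SI replicate 2 (adjusted p = 0.517). It was also called in SMC-like cells without SI replicate 1 (1.46, adjusted p = 0.0335) and in mesothelial-like cells without LI replicate 2 (2.03, adjusted p = 0.0137). *Sparc* was at 0.11 ± 0.21, 0.30 ± 0.18 and 0.46 ± 0.18 in other mesenchyme, SMC-like and mesothelial-like cells. In neural-like cells *Sparc* was at -0.80 ± 0.22 (adjusted p = 0.211), with 495 and 367 CPM in LI and 272 and 249 CPM in SI, and it was called there without LI replicate 2 (-1.04, adjusted p = 2.36e-05), where 12.9% of all genes were called.

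*Cyr61*, *Ctgf* and *Thbs1* lay within the spread between libraries. In other mesenchyme their log2 fold changes were 0.40 ± 0.40, 0.71 ± 0.36 and 0.15 ± 0.32, with adjusted p of 0.694, 0.392 and 0.868. Without LI replicate 2 those of *Cyr61* and *Ctgf* became 1.27 and 1.5 and were called (adjusted p = 0.000988 and 0.000155), while without LI replicate 1 they were -0.18 and 0.17 (adjusted p = 0.764 and 0.777). Leaving out a single LI library thus moved these genes past the threshold. In SMC-like cells *Ctgf* was called without LI replicate 2 (0.98, adjusted p = 0.0124) and *Cyr61* without LI replicate 1 (-0.86, adjusted p = 0.0272). In neural-like cells *Ctgf* was called in opposite directions without LI replicate 1 (-0.96, adjusted p = 0.00113) and without LI replicate 2 (0.90, adjusted p = 0.0319), and *Cyr61* without LI replicate 2 (1.98, adjusted p = 2.98e-12), which leaves as LI only the library that stood apart in depth. *Spp1* was tested only in neural-like cells among the single groups (-1.33 ± 0.67, adjusted p = 0.665). It rested on LI replicate 1, without which it was -0.30 (adjusted p = 1.00), and it was called without LI replicate 2 (-2.27, adjusted p = 0.00359). *Nov* passed the filter on low counts in none of the 4.

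The values of *Postn* and *Wisp1* are given as a description. The log2 fold change of *Postn*, SI over LI, was -1.13 ± 0.25 in other mesenchyme, -1.15 ± 0.23 in SMC-like cells, 1.46 ± 0.25 in mesothelial-like cells and 0.77 ± 0.36 in neural-like cells. That of *Wisp1* was 1.57 ± 0.26, 0.44 ± 0.25 and 1.95 ± 0.22 in the first 3 of these groups. *Postn* libraries of LI and SI did not overlap in any of the 4 groups, although the direction in mesothelial-like and neural-like cells was opposite to that in the mesenchyme. *Postn* UMIs were seen in 8.39 and 12.7% of thinned mesothelial-like cells of LI and 26.6 and 35.3% of those of SI. For *Wisp1* the shares were 6.47 and 9.61% in LI and 30.1 and 34.1% in SI.

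**Figure D3:**
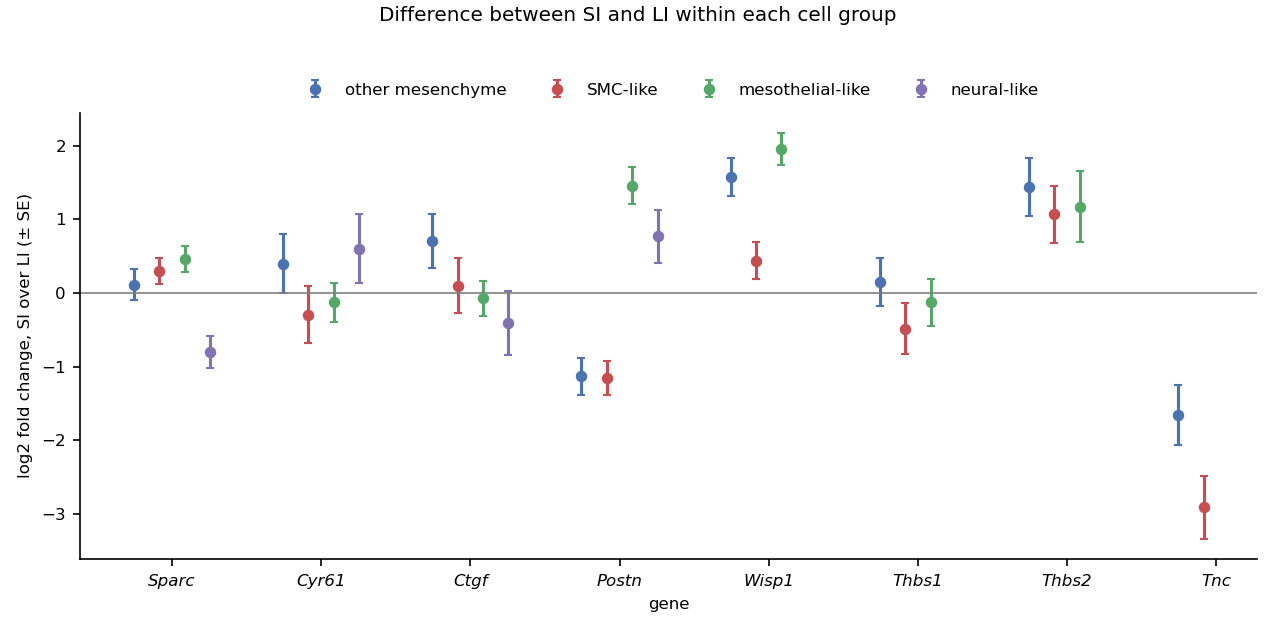
Log2 fold change of SI over LI (y axis) of 8 members (x axis) in 4 groups of cells (colours), from the fits over all genes, with bars of 1 SE. *Tnc* in neural-like cells is not drawn because both SI libraries had 0 UMIs, and other missing points did not pass the filter on low counts. *Tnc* was below 0, and *Thbs2* above it, in every group drawn, while *Postn* was on both sides.

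The second question was whether a member moved between the regions by different amounts in different groups of cells. An interaction of region and group was tested with library as a block, so that each group was compared with other mesenchyme of the same library. Against mesothelial-like cells 2 of the 7 members tested were called, *Ctgf* (log2 change -0.89 ± 0.14, adjusted p = 0.000258) and *Cyr61* (-0.62 ± 0.13, adjusted p = 0.00437), with 5.24% of 13240 genes called, 3.5% shifted towards LI and 1.74% towards SI. Against SMC-like cells 3 of 6 were called, *Ctgf* (-0.58 ± 0.08, adjusted p = 0.00516), *Thbs1* (-0.61 ± 0.12, adjusted p = 0.0374) and *Cyr61* (-0.65 ± 0.14, adjusted p = 0.0411), with 1.53% of 13559 genes called, 0.988% shifted towards LI and 0.546% towards SI. All 5 values were negative, meaning that the level relative to other mesenchyme was higher in LI. Both tests share the libraries of other mesenchyme, whose make-up differed: cluster 0, with the highest *Ctgf* of its 4 clusters, held 59.5, 59.2, 41.9 and 45.4%, and cluster 8, with the lowest, 4.28, 7.81, 1.03 and 4.63% of its cells. The part of this make-up in the interactions was not tested.

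Ratios within a library come from the same sums as the tests, so they only describe these results. *Ctgf* in mesothelial-like cells was 3.44 and 2.24 times the level of other mesenchyme in LI and 1.61 and 1.57 times in SI. In SMC-like cells it was 1.53 and 1.58 times that of other mesenchyme in LI and 1.06 and 1.03 times in SI. These LI and SI ratios did not overlap, and the SMC-like ratios of the LI replicates were close although their levels differed 2.69-fold. For *Cyr61* the mesothelial-like ratios were 1.99 and 1.40 in LI and 1.35 and 0.99 in SI, and the SMC-like ratios 0.91 and 0.91 in LI and 0.71 and 0.47 in SI. *Thbs1* had SMC-like ratios of 0.86 and 0.95 in LI and 0.65 and 0.57 in SI.

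The *Ctgf* interaction with mesothelial-like cells kept its call under each of 13 alternatives (adjusted p up to 0.00997), and that with SMC-like cells under 12 of 13. The exception was a grouping by marker UMIs in each cell (-0.58, adjusted p = 0.113). *Cyr61* against mesothelial-like cells was called under 10 of 13 alternatives. It lost its call without LI replicate 1 (-0.34, adjusted p = 0.134), with DESeq2 (adjusted p = 0.0770) and with groups by marker UMIs (0.0585). *Cyr61* against SMC-like cells was called under 11 of 13, and lost its call with groups by marker UMIs (adjusted p = 0.153) and with unnamed clusters taken as other mesenchyme (0.0576). *Thbs1* against SMC-like cells was called under 6 of 13 alternatives, with adjusted p = 0.340 without LI replicate 2, 0.0793 without SI replicate 2 and 0.741 with DESeq2. *Sparc* against mesothelial-like cells was at 0.31 ± 0.11 (adjusted p = 0.105), and was called without LI replicate 2 (0.54, adjusted p = 0.000294) or without SI replicate 2 (0.36, adjusted p = 0.0451), but was 0.12 without LI replicate 1 (adjusted p = 0.827). *Tnc* against SMC-like cells was at -1.27 ± 0.40 (adjusted p = 0.222) and was called without SI replicate 1 (-1.5, adjusted p = 0.0116). As a description without a test, *Postn* had an interaction of 2.59 ± 0.18 with mesothelial-like and -0.02 ± 0.13 with SMC-like cells, and *Wisp1* one of 0.38 ± 0.21 and -1.18 ± 0.24.

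**Figure D4:**
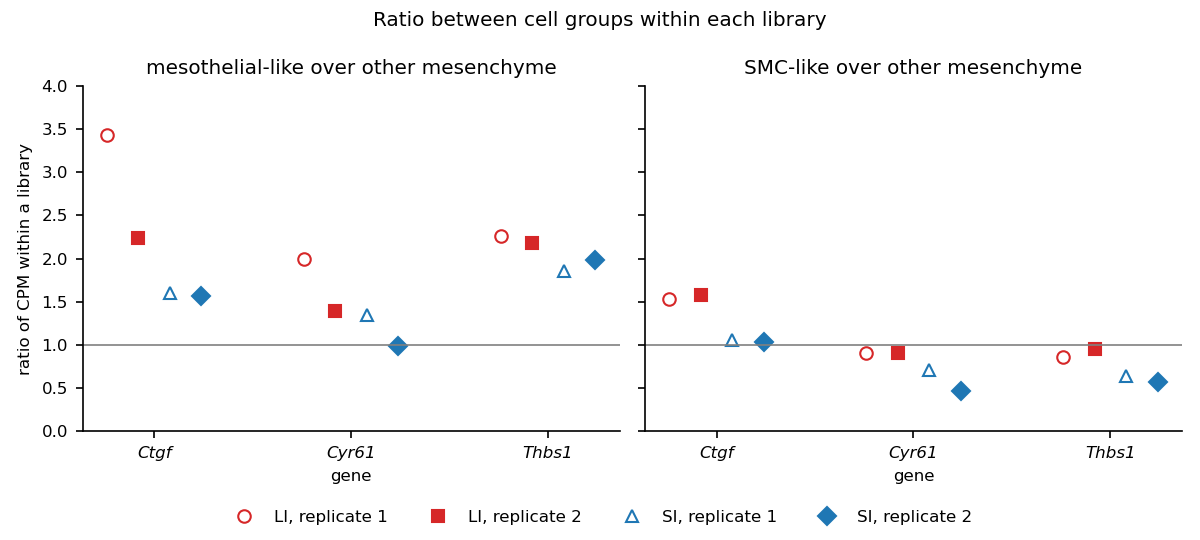
Ratio of CPM in mesothelial-like cells (left) or SMC-like cells (right) to CPM in other mesenchyme of the same library (y axis, linear from 0) for 3 members (x axis). Each point is 1 library, red for LI and blue for SI, open for replicate 1 and filled for replicate 2. The LI ratios lay above the SI ratios for each gene in both panels, and the *Ctgf* ratios fell from 3.44 and 2.24 in LI to 1.61 and 1.57 in SI on the left.

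Genes known to respond to tissue dissociation were read from these fits as well. Of 23 such genes, among them the early response genes *Fos*, *Jun* and *Egr1*, 15 were called in the interaction with mesothelial-like cells and all 15 shifted towards LI, as *Ctgf* and *Cyr61* did. Their median log2 change was -0.61 against -0.053 over all genes, and *Fos* (-0.81 ± 0.10), *Hspa1a* (-1.31 ± 0.17) and *Dusp1* (-0.81 ± 0.13) had the smallest adjusted p. In the comparison of SI with LI in mesothelial-like cells 4 of the 23 were called, higher in LI, with *Jun* (-1.16 ± 0.19), *Dusp1* (-1.18 ± 0.21) and *Egr1* (-0.99 ± 0.19) the first by adjusted p, and in the interaction with SMC-like cells 0 were called by edgeR, with 8 at an unadjusted p under 0.05, as were 10.6% of all genes. The summed level of the 23 genes in mesothelial-like cells was 12062 and 14153 CPM in LI and 6501 and 8212 CPM in SI. In SMC-like cells it was 7073 and 8252 CPM in LI and 4986 and 5176 CPM in SI, again without overlap. Other mesenchyme had 8264 and 10950 CPM in LI and 5989 and 8808 CPM in SI, and neural-like cells 2701 and 3114 CPM in LI and 3439 and 4501 CPM in SI. Their part in the *Cyr61*, *Ctgf* and *Thbs1* results was not tested. SMC markers also differed between libraries in SMC-like cells, with a summed level from 1947 CPM in LI replicate 1 to 10681 CPM in SI replicate 2, and their part in the SMC-like values was not tested either.

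Other targets of YAP were read from the same fits. Of 17 genes known as YAP targets, 16 were tested in both interactions. *Gadd45b* (-1.25 ± 0.18) was called towards LI and *Igfbp3* (2.20 ± 0.57) towards SI with mesothelial-like cells, and *Fjx1* (0.52 ± 0.11) towards SI with SMC-like cells. The median over the tested genes was 0.01 and -0.09. *Gadd45b* is also known as a stress response gene and *Igfbp3* encodes a binding protein of insulin-like growth factors. In the 4 comparisons of SI with LI 0 of the YAP targets were called by edgeR. In other mesenchyme 5 of 16 tested had an unadjusted p under 0.05, and in SMC-like cells 7 of 15. In mesothelial-like cells there were 2 of 14 and in neural-like cells 3 of 14. Of all genes, 16.1%, 12.0%, 10.8% and 8.32% did so in the same order. The median log2 changes of the tested targets were -0.23, -0.33, -0.26 and -0.10.

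Receptors of matricellular proteins were read from a list of 15 genes, of which *Itgam* was left out because a pair of identifiers share its symbol. *Cd44*, which encodes a receptor of hyaluronan and osteopontin, was higher in LI in other mesenchyme (log2 change -2.59 ± 0.35, adjusted p = 0.00771) and in SMC-like cells (-2.08 ± 0.35, adjusted p = 0.0274). *Itgav*, the integrin chain shared by receptors of periostin, osteopontin and the CCN proteins, was higher in LI in the same groups (-1.20 ± 0.20 and -1.17 ± 0.20, adjusted p = 0.0210 and 0.0261). These 2 were the receptors called of 12 tested in each of these groups, and 0 of 9 were called by edgeR in mesothelial-like and in neural-like cells, with 2 and 3 at an unadjusted p under 0.05. *Itgb3*, the partner chain of *Itgav* in the vitronectin receptor, was called in the interaction with mesothelial-like cells (-2.40 ± 0.56, adjusted p = 0.00891). The median log2 change of the tested receptors was 0.14 in other mesenchyme and 0.14 in SMC-like cells, -0.30 in mesothelial-like cells with 1 of 9 above 0, and -0.09 in neural-like cells. In the interactions it was -0.31 with mesothelial-like cells, with 3 of 13 above 0, and 0.01 with SMC-like cells.

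A further 20 matricellular genes outside the 10 were examined in the same fits, of which 7 to 14 passed the filter on low counts. *Smoc2*, a calcium-binding relative of *Sparc*, was higher in SI in mesothelial-like cells (1.32 ± 0.22, adjusted p = 0.0153), and *Spock3*, a matrix proteoglycan gene, in neural-like cells (1.73 ± 0.25, adjusted p = 0.0272). In the interactions *Tgfbi* (-1.36 ± 0.28, adjusted p = 0.00253) and *Sparcl1* (-1.37 ± 0.30, adjusted p = 0.00481) shifted towards LI in mesothelial-like cells and *Smoc2* (-1.56 ± 0.23, adjusted p = 0.00759) in SMC-like cells. In other mesenchyme and in SMC-like cells 0 of these genes were called between SI and LI by edgeR. An unadjusted p under 0.05 was reached by 4 of 12 tested genes in other mesenchyme and 2 of 11 in SMC-like cells. It was reached by 4 of 10 in mesothelial-like and 5 of 7 in neural-like cells. Of all genes, 16.1%, 12.0%, 10.8% and 8.32% did so in the same order.

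To see which genes shared the pattern of a member over all groups, log2(CPM + 5) was correlated over the 16 sums (4 groups in 4 libraries) with 6569 other genes. Sums of 1 library share its depth, so the values are a description. *Thbs1* was most like *Cdon* (r = 0.986) and *Fosl2* (0.984), *Cyr61* most like *Socs3* (0.971) and *Lrp1* (0.968), and *Ctgf* most like *Neo1* (0.961) and *Kansl1l* (0.958). *Sparc* was most like *Sec61a1* (0.972) and *Surf4* (0.970), both genes of the secretory pathway. *Wisp1* was most like *Marc2* (0.964) and *Tmed3* (0.963). *Postn* had the lowest maximum of the 6, with *App* at 0.901 and *Klhl24* at 0.889.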

How the data were processed

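Cells of 4 libraries (2 SI, 2 LI) were profiled with 10x kits. The deposited values are UMI counts per gene and barcode; the submitters' processing notes name Cell Ranger 3.1.0, Seurat 3 and mm10, and the authors applied no normalization to these counts. Cells with at least 1000 genes and at most 10% mitochondrial UMIs were kept, and the 1094 barcodes with the highest Scrublet scores (scanpy 1.11.5) were removed as likely doublets, at an assumed 0.8% per 1000 cells; Scrublet's own threshold had not worked, calling only 1 to 6 per library. Cells were clustered in Seurat 5.3.0 (30 components, resolution 0.3) on 1922 of 2000 variable genes, without the members, the gene lists or Hox genes. Clusters were named where at least 3 markers of 1 class stood among the 10 leading genes, or taken as other mesenchyme where no marker of another class led and at least 3 fibroblast markers were in at least 10% of cells; this rule was set with the clusters known.

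UMI sums per library and group were fitted with edgeR 4.0.16 (TMM, filter on low counts, quasi-likelihood test, R 4.3.3), and the interactions with library as a block. On simulated counts 98.5 to 100.0% of 4-fold changes were recovered, and 2.9 to 6.1% of the calls were false. Recovery of smaller changes was not simulated. Alternatives included DESeq2 1.42.0, no filter, other groupings and each library left out; those on shared barcodes and on unnamed clusters in the interactions were chosen after seeing the data. The members and lists were chosen with earlier results of these data known. All members are given, with at most 3 called genes of each other list by adjusted p, and the 2 most alike genes of each member at 20 CPM or more in a group. Intervals and limits for a count of 0 (3 UMIs) cover counting error only.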

Additional observations from a re-analysis of the deposited data

Results flagged for a closer look

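The amount by which a member moved between the regions was not the same in all groups of cells for 3 members, by the edgeR test of the interaction of region and group (Benjamini-Hochberg over all genes). Against other mesenchyme, mesothelial-like cells had a more LI-ward log2 change of *Ctgf* by -0.89 (adjusted p = 0.000258) and of *Cyr61* by -0.62 (adjusted p = 0.00437). SMC-like cells had one of *Ctgf* by -0.58 (adjusted p = 0.00516), of *Cyr61* by -0.65 (adjusted p = 0.0411) and of *Thbs1* by -0.61 (adjusted p = 0.0374). For each of these 5 results the ratio to other mesenchyme was higher in both LI libraries than in both SI libraries. The ratios come from the sums that gave the calls, so they describe the results and are no second test. Over all genes 5.24% and 1.53% were called in the same tests. *Thbs1* was called under 6 of 13 alternatives, with adjusted p up to 0.741. Of 23 dissociation-response genes, 15 were called towards LI in the interaction with mesothelial-like cells, and their part was not tested.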

How the results depend on the processing

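With 2 libraries per region, 1 library could decide a call. Counts of the 8 tested members that were called moved as follows. With DESeq2, 2 were called in other mesenchyme and 1 in the interaction with mesothelial-like cells. With no filter on low counts, 3 were called in other mesenchyme, 2 in SMC-like and 2 in neural-like cells. With unnamed clusters added or with equal cells of each cluster, 1 was called in other mesenchyme, with 3.34% of all genes called in either. With groups by marker UMIs, 1 was called in the interaction with mesothelial-like cells and 0 by edgeR in that with SMC-like cells. Leaving out each library gave 1 to 4 calls in other mesenchyme, 1 to 2 in SMC-like, 0 to 1 in mesothelial-like and 0 to 4 in neural-like cells, and 1 to 3 and 2 to 4 in the interactions with mesothelial-like and SMC-like cells. The highest counts in other mesenchyme, mesothelial-like and neural-like cells came without LI replicate 2, and that of 2 in SMC-like cells without LI replicate 1, LI replicate 2 or SI replicate 1. More genes were then called overall: without LI replicate 2, 10.3%, 7.88%, 10.3% and 12.9% of all genes in other mesenchyme, SMC-like, mesothelial-like and neural-like cells, against 2.97%, 1.6%, 1.01% and 0.328% with all libraries. Without each of the other libraries the shares were 2.69 to 4.57%, 1.7 to 3.26%, 1.04 to 2.34% and 0.219 to 2.05%. Over all 4 leave-outs they were 2.33 to 5.65% and 0.971 to 5.56% in the interactions with mesothelial-like and SMC-like cells. With no filter the shares were 6.97%, 4.94%, 2.58% and 2.16%. DESeq2 called 4.19% in other mesenchyme, 1.28% in the interaction with mesothelial-like cells and 0.516% in that with SMC-like cells, and groups by marker UMIs gave 3.49% and 0.169% in the interactions.

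Replicate numbers are shared between regions, but the labels do not say that a number marks a batch. With the replicate number as a block, 2 members were called in other mesenchyme (*Tnc*, *Thbs2*), 2 in SMC-like (*Tnc*, *Thbs2*), 2 in mesothelial-like (*Thbs2*, *Sparc*) and 3 in neural-like cells (*Sparc*, *Cyr61* and *Tnc*, the last with 0 UMIs in SI and past the filter by LI alone). All genes called under the block made 8.4%, 6.05%, 7.26% and 4.27%. Deviations of libraries with the same number correlated at 0.289, 0.382, 0.237 and 0.310 in these groups.

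Directions turned for *Sparc* in other mesenchyme with equal cells of each cluster (-0.024), for *Ctgf* in SMC-like cells at resolution 0.6 (-0.090), and in the interaction with mesothelial-like cells for *Tnc* with doublets kept (-0.034) and *Thbs2* with unnamed clusters (0.093). With groups by marker UMIs they turned in SMC-like cells for *Sparc* (-0.58), *Wisp1* (-0.30) and *Ctgf* (-0.0034), and for the *Sparc* interaction (-0.56). Leaving out each library gave log2 changes of -0.28 to 0.60 for *Thbs1*, -0.10 to 0.31 for *Sparc* and -0.18 to 1.27 for *Cyr61* in other mesenchyme. In SMC-like cells it gave -0.89 to 0.14 for *Thbs1*, -0.44 to 0.98 for *Ctgf* and -0.86 to 0.64 for *Cyr61*, and in mesothelial-like cells -0.62 to 0.28, -0.40 to 0.31 and -0.54 to 0.40. In neural-like cells it gave -0.96 to 0.90 for *Ctgf* and -0.034 to 1.98 for *Cyr61*. In the interaction with mesothelial-like cells it gave -0.71 to 8.56 for *Tnc*, -0.57 to 0.45 for *Thbs2* and -1.82 to 0.52 for *Spp1*. Mesothelial-like cells of LI replicate 2 had 0 *Tnc* UMIs, so 8.56 is a fit over a count of 0 and not a measured fold. The cause of these changes was not tested.

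Shares of cells with a UMI in each member's highest group moved with depth. Without thinning they were 37.3% for *Postn*, 5.08% for *Tnc*, 31.8% for *Thbs1*, 7.0% for *Thbs2*, 3.18% for *Spp1*, 42.3% for *Wisp1*, 55.8% for *Ctgf* and 86.2% for *Cyr61*. Thinned to 2000 UMIs they were 89.7% for *Sparc*, 34.7% for *Ctgf* and 68.9% for *Cyr61*. At resolution 0.6 those of *Ctgf* and *Cyr61* were 42.2 and 78.3%, and with doublets kept that of *Spp1* was 1.14%. At 97 and 63 UMIs, *Spp1* and *Nov* were too sparse to show a difference between regions in most groups.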

Other observations

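The unnamed cluster 10, led by *Pf4*, *Afp* and haemoglobin genes, held 175 cells, of which 156 came from LI replicate 2. Leading genes are those of the UMIs summed over a cluster and need not mark each of its cells. *Sparc* stood at 1060.0 CPM and *Thbs1* at 35.1 CPM in those 156 cells. These cells were in none of the 4 groups of the main clustering. They were compared in alternatives that grouped cells by marker UMIs or added the unnamed clusters. With doublets kept, *Pf4*, *Afp* and haemoglobin genes led a cluster of only 22 cells, 3 of them from LI replicate 2. Another cluster of 170 cells, 153 of them from LI replicate 2 and led by *Actc1* and *Tnnt1*, was taken as other mesenchyme there. Which cells these clusterings shared was not tested.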
